A study of Mus musculus with 6 samples.

Results

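Pyruvate dehydrogenase control was followed in liver RNA through 10 genes: the kinase genes Pdk1, Pdk2, Pdk3 and Pdk4, the phosphatase genes Pdp1 and Pdp2, and the subunit genes Pdha1, Pdhb, Dlat and Pdhx. Members were taken by gene symbol, as every probe set that the platform annotation paired with one of these genes alone, which gave 18 of 45037 probe sets and 10 of 18194 genes. The study set 3 congenic B6.C3H-6T mice against 3 C57BL/6J mice, with 1 liver and 1 Affymetrix array for each mouse. B6.C3H-6T carries C3H DNA on chromosome 6 in a C57BL/6J background and is described in the series title as having low serum IGF-1. Mice of both strains were female, 8 weeks old and on chow, and no treatment of the animals was given in the labels. B6.C3H-6T is a single congenic line, the sources used here do not give the limits of its C3H segment, and the labels do not say whether mice of a strain were littermates. P-values set a strain difference against the variation between the 3 mice of each strain. They take these mice as independent and do not extend to other lines.

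The pyruvate dehydrogenase complex converts pyruvate into acetyl-CoA in mitochondria and so commits carbohydrate carbon to oxidation or fat synthesis. The kinases phosphorylate its E1 alpha subunit and switch the complex off, and the phosphatases remove the phosphate and switch it on again. In liver, Pdk4 is known to be induced by fasting, by PPAR alpha and by glucocorticoids and to be lowered by insulin, while Pdk2 is the kinase most widely present in fed tissue. Pdk4 is the one member encoded on chromosome 6, the chromosome that carries the C3H DNA.

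The promoters of 3 members are shown. Pdk4 lies on the chromosome with C3H DNA, while Pdp2 and Pdk2 were chosen by their values. Pdk2 was the other member at which the strains did not overlap. Pdp2, a phosphatase gene, had a strain difference of the same sign as Pdk4 (-0.31). Pdk3 (-0.08) and Pdhx (-0.12) shared that sign, and the strains overlapped at Pdp2, Pdk3 and Pdhx. Each window holds 250 bases before and 50 bases after an annotated start in the RefSeq sequence of assembly GRCm38.p6, which is C57BL/6J sequence and does not show C3H bases. Capitals mark matches on either strand to the motifs searched. These were AGGTCA (nuclear receptor half-site), its direct repeat with 1 base of any kind between the copies (which overlaps the half-site), TGTTTAC (forkhead), AGAACA (glucocorticoid receptor half-site), the core promoter element TATAAA, the promoter element CCAAT, the GC box GGGCGG and the E box CACGTG. The windows are Pdk4 at chr6:5496229-5496528 on the minus strand, Pdp2 at chr8:104591222-104591521 on the plus strand and the upstream of 2 annotated Pdk2 starts at chr11:95041322-95041621 on the minus strand.
Pdk4: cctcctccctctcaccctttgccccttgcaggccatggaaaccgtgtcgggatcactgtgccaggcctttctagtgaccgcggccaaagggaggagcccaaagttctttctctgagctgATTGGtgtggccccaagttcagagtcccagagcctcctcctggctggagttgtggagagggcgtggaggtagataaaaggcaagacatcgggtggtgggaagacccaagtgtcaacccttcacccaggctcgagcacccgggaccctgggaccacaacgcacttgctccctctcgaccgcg
Pdp2: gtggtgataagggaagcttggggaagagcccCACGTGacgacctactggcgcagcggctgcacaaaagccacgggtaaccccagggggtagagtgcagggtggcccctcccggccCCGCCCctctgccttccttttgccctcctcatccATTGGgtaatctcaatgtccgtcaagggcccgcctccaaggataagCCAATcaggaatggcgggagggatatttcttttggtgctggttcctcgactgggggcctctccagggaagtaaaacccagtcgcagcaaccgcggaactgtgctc
Pdk2: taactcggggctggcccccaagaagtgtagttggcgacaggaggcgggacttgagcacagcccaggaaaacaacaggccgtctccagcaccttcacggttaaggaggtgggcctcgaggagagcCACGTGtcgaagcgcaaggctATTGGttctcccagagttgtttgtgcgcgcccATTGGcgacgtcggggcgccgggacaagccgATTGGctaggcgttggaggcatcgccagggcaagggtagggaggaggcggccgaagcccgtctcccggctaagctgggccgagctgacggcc
The Pdk4 window held 1 match, a CCAAT box on the opposite strand whose first base lies at -131 from the start. Pdp2 held 2 CCAAT boxes, 1 GC box and 1 E box, and this Pdk2 window held 3 CCAAT boxes and 1 E box. Among all 32851 promoter windows of this length, 37.4% held CCAAT, 35.7% GGGCGG and 7.15% CACGTG on either strand. The half-site AGGTCA was in 16.3% of all windows, the direct repeat in 0.0396%, TGTTTAC in 3.65%, AGAACA in 19.0% and TATAAA in 13.6%. None of these letters was in the 3 windows shown. Sites outside the promoter windows, or with other letters, were not searched. The tables held windows for 9 of the 10 members, Pdp1 being named only.

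Pairs of arrays correlated at 0.994 to 0.997 across probe sets. B6.C3H-6T replicate 2 lay farthest out on the first principal component, and B6.C3H-6T replicate 3 lay nearest to C57BL/6J. The control probe sets of Pcx, the pyruvate carboxylase gene, gave a 3' minus 5' signal of 2.12 ± 0.10 in B6.C3H-6T and 2.20 ± 0.13 in C57BL/6J on the log2 scale (SD, 3 mice each; two-sided exact permutation p = 0.5, with 0.1 as the smallest possible). The lowest of the 6 hepatocyte markers lay at percentile 99.5 of probe set signal. All values below are log2 expression values, each difference is B6.C3H-6T minus C57BL/6J, and a gene passes at an adjusted p under 0.05 over all 45037 probe sets. Levels of different probe sets are not compared with each other, because probes differ in how strongly they bind.

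Pdk4, the kinase known for fasting, had the widest difference of the 18 member probe sets and was lower in the congenic mice. Its single probe set, 1417273_at, read 7.30, 6.63 and 7.29 in B6.C3H-6T mice 1 to 3, against 7.72, 8.35 and 8.10 in C57BL/6J mice 1 to 3. Every congenic mouse lay below every C57BL/6J mouse, with B6.C3H-6T replicate 2 lowest and C57BL/6J replicate 2 highest. Means were 7.07 ± 0.39 in B6.C3H-6T and 8.06 ± 0.32 in C57BL/6J (SD, 3 mice each), a difference of -0.98 ± 0.20 (SE), or 1.98-fold, with a 95% interval from -1.44 to -0.53. The unadjusted limma p was 0.000872, but Pdk4 did not pass over all probe sets (limma adjusted p = 0.226). The two-sided exact permutation test over mice gave p = 0.1, the smallest value that 3 against 3 mice allow. Without B6.C3H-6T replicate 2 the difference was -0.76 (limma adjusted p = 0.456), and over the 6 fits that each left out 1 array it ran from -1.15 to -0.76. In whole liver RNA, fewer cells with a transcript and less transcript per cell cannot be told apart.

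**Figure D1:**
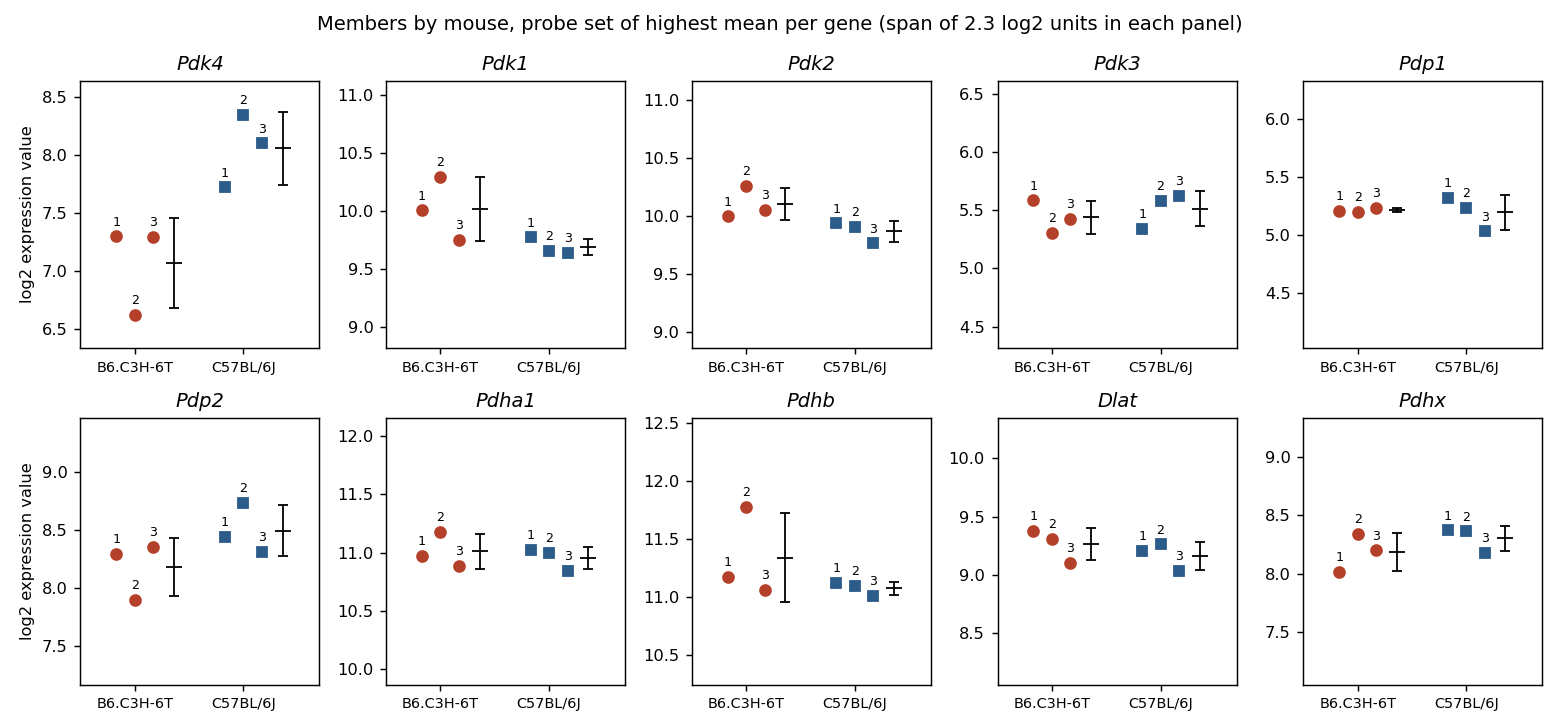
Log2 expression value of each member by mouse, for the probe set of highest mean per gene, with B6.C3H-6T (circles) left of C57BL/6J (squares), replicate numbers above the points, and mean ± SD of 3 mice as black bars. Each panel spans the same number of log2 units but has its own level. The strains are apart for Pdk4 (7.07 against 8.06) and for Pdk2 (10.10 against 9.87) and overlap in the other 8 panels.

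Of the other kinase genes, Pdk1 and Pdk2 had positive differences and Pdk3 a small negative one, and none passed. Pdk1, a kinase known as a target of hypoxia signalling, was read by 4 probe sets. The probe set that represents it, 1423748_at, read 10.004, 10.30 and 9.75 in B6.C3H-6T against 9.77, 9.66 and 9.64 in C57BL/6J. B6.C3H-6T replicate 3 lay just below C57BL/6J replicate 1, so the strains overlapped. Its difference was 0.33 ± 0.12 (limma adjusted p = 0.420), or 0.19 without B6.C3H-6T replicate 2. Probe set 1423747_a_at read 9.64, 10.03 and 9.81 in B6.C3H-6T against 9.67, 9.23 and 9.27 in C57BL/6J, a difference of 0.44 ± 0.13. Probe set 1435836_at differed by 0.30 ± 0.13, or by 0.16 without that mouse. The first 3 probe sets of Pdk1 thus had positive differences with unadjusted limma p-values of 0.0262, 0.00974 and 0.0454, and they read the same transcripts of the same mice, so they are not independent. The fourth, 1434974_at, was dim (percentile 41.4 of signal) and differed by 0.10 ± 0.20.

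Pdk2, the kinase of the fed liver, was read by a single probe set at 9.99, 10.26 and 10.05 in B6.C3H-6T, against 9.93, 9.90 and 9.76 in C57BL/6J. The strains did not overlap, but the lowest congenic mouse was only a little above the highest C57BL/6J mouse. Means were 10.10 ± 0.14 and 9.87 ± 0.09 (B6.C3H-6T and C57BL/6J, SD, 3 mice each), and the difference of 0.23 ± 0.09 did not pass (limma adjusted p = 0.414). Without B6.C3H-6T replicate 2 it was 0.16. Pdk3, a kinase with little signal here (percentile 37.7), read 5.59, 5.31 and 5.43 in B6.C3H-6T against 5.34, 5.58 and 5.62 in C57BL/6J. Its difference was -0.08 ± 0.10, with a 95% interval from -0.30 to 0.15, the strains overlapped, and B6.C3H-6T replicate 2 was again lowest.

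Of the phosphatases, Pdp2 encodes the form known in rat to fall on starvation in heart and kidney, and Pdp1 the calcium-stimulated form abundant in muscle. Pdp2 read 8.29, 7.89 and 8.35 in B6.C3H-6T against 8.43, 8.73 and 8.31 in C57BL/6J. The lowest value was again in B6.C3H-6T replicate 2 and the highest in C57BL/6J replicate 2, while the other 4 mice lay between 8.29 and 8.43. The difference was -0.31 ± 0.14 (limma adjusted p = 0.475), and it was -0.17 without B6.C3H-6T replicate 2 and -0.19 without C57BL/6J replicate 2. Pdp1 was dim in both its probe sets (percentiles 32.0 and 6.95), with differences of 0.02 ± 0.08 and 0.01 ± 0.06. The 95% interval for its brighter probe set ran from -0.17 to 0.20, and the sign of both turned when the arrays were centred on their medians.

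The subunit genes of the complex differed less than Pdk4. Pdhb, which encodes E1 beta, read 11.18, 11.78 and 11.07 in B6.C3H-6T against 11.12, 11.10 and 11.01 in C57BL/6J. One congenic mouse, replicate 2, stood above the other 5, which lay between 11.01 and 11.18. The difference was 0.26 ± 0.16 (limma adjusted p = 0.605) and 0.04 without B6.C3H-6T replicate 2. The second Pdhb probe set, 1448214_at, read 7.23, 8.03 and 7.29 in B6.C3H-6T against 7.27, 6.99 and 6.88 in C57BL/6J. Its difference was 0.47 ± 0.20 (limma adjusted p = 0.450), and 0.22 without B6.C3H-6T replicate 2.

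Pdha1, which encodes the E1 alpha subunit that the kinases phosphorylate, read 10.97, 11.18 and 10.88 in B6.C3H-6T against 11.02, 11.00 and 10.84 in C57BL/6J. Its difference was 0.06 ± 0.09, with a 95% interval from -0.15 to 0.26, and its second probe set differed by -0.03 ± 0.09. Dlat, the E2 acetyltransferase core, was read by 3 probe sets whose differences were 0.10 ± 0.09, 0.04 ± 0.08 and -0.18 ± 0.10. The lowest of these, 1452005_at, read 7.23, 7.37 and 7.27 in B6.C3H-6T against 7.66, 7.30 and 7.45 in C57BL/6J (limma adjusted p = 0.551). The Dlat probe sets thus disagreed in sign, and none passed. Pdhx, which binds E3 to the core, read 8.01, 8.34 and 8.20 in B6.C3H-6T against 8.37, 8.36 and 8.18 in C57BL/6J, and its difference of -0.12 ± 0.10 had a 95% interval from -0.34 to 0.10.

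**Figure D2:**
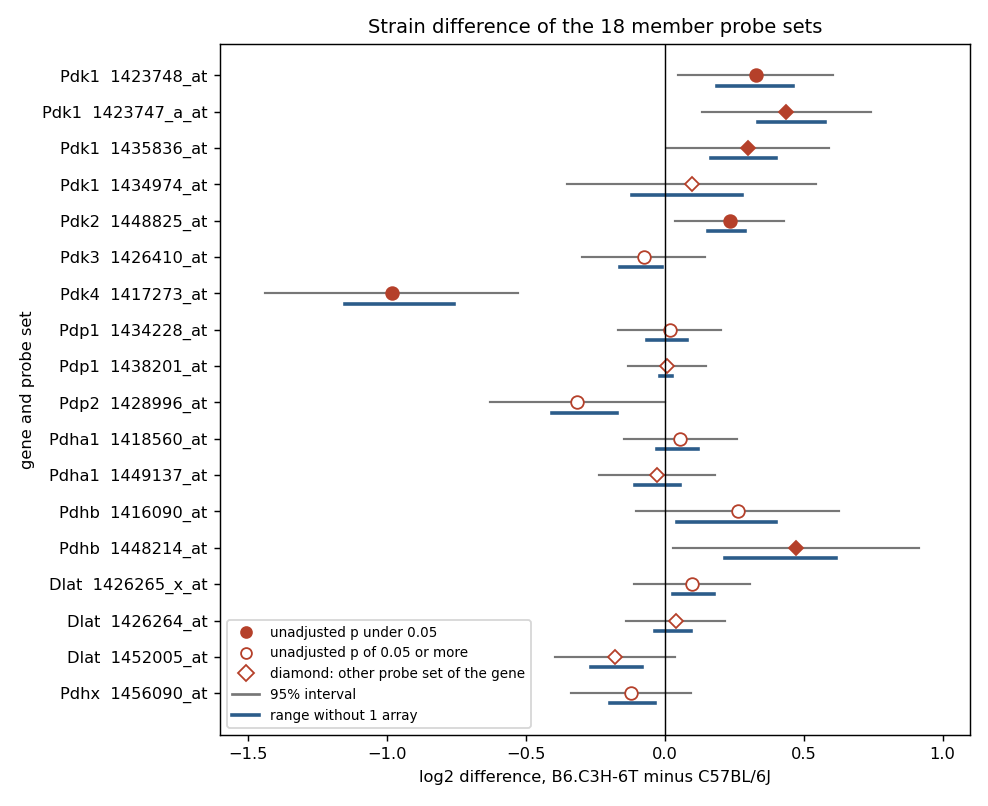
Log2 difference between the strains, B6.C3H-6T minus C57BL/6J, for the 18 member probe sets. Circles are the probe set of highest mean of a gene and diamonds its other probe sets, filled where the unadjusted p was under 0.05, with 95% intervals in grey and the range over fits without 1 array in blue. Pdk4 stands at -0.98, and the other 17 lie between -0.31 and 0.47.

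Counted together, 0 of the 18 member probe sets passed in limma, where 0.0577% of all probe sets passed. At an unadjusted limma p under 0.05 there were 6 of 18, 5 higher and 1 lower, against 10.6% of all probe sets (5.74% higher and 4.82% lower). These 6 were Pdk4, Pdk2, 3 of Pdk1 and 1 of Pdhb, so they come from 4 genes. With the arrays centred on their medians the count of members was also 6, but 4 higher and 2 lower, since 1 probe set of Pdk1 left it and Pdp2 entered, while the split over all probe sets became 1545 higher and 3085 lower, in place of 2584 higher and 2171 lower. Without B6.C3H-6T replicate 2 the count was 2, Pdk4 and 1 probe set of Pdk1, and without C57BL/6J replicate 3 it was 3. Without B6.C3H-6T replicate 3 it rose to 8. Over all probe sets, 1652 were higher and 1287 lower at that p without B6.C3H-6T replicate 2. There were 1501 higher and 2009 lower without C57BL/6J replicate 3, and 2966 higher and 2493 lower without B6.C3H-6T replicate 3. Strains did not overlap at 2 member probe sets, Pdk4 and Pdk2 (11.1%), against 16.0% of all probe sets. The median difference was 0.05 over the member probe sets and 0.02 over all probe sets.

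Pdk4 was also set against each other member within each array, which asks whether it differed between the strains by the same amount as they did. The strain difference of Pdk4 minus that of Pdk2 was -1.22 on the log2 scale. Such a shift was widest against Pdk1, at -1.31, and narrowest against Pdp2, at -0.67. In all 9 comparisons the strains did not overlap, and each gave a two-sided exact permutation p of 0.1, the smallest possible, which stayed 0.1 after Benjamini-Hochberg adjustment over the 9. All 9 use the same Pdk4 values, the member with the widest difference, and 2 of them rest on the dim probe sets of Pdk3 and Pdp1. At this sample size the tests cannot pass 0.05, so the shifts are a description.

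Mice of a strain were not alike across the members. B6.C3H-6T replicate 2 held the highest or the lowest value of the 6 mice at 13 of 18 member probe sets (72.2%), against 35.2% of all probe sets. It was highest at 10, in Pdk1, Pdk2, Pdhb and others, and lowest at 3, which were Pdk4, Pdk3 and Pdp2. C57BL/6J replicate 3 was lowest at 9 of 18, against 21.1% of all probe sets. B6.C3H-6T replicate 3 held neither extreme at any of the 18, against 27.7% of all probe sets. Probe sets of one gene and genes of one mouse share their source, so these shares describe the arrays and were not tested.

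The genes whose profiles over the 6 mice were most like that of Pdk4 were found among 18184 other genes, by the Euclidean distance between log2 values centred on each gene's own mean. The nearest was Vnn1, a pantetheinase gene known as a PPAR alpha target, at a distance of 0.21, against a median distance of 1.43 over all genes. It read 10.62, 9.90 and 10.66 in B6.C3H-6T against 11.24, 11.61 and 11.43 in C57BL/6J. As for Pdk4, replicate 2 was the lowest congenic mouse and replicate 2 the highest C57BL/6J mouse. G0s2, an inhibitor gene of triglyceride lipase, followed at 0.27, Inhbe, which encodes an activin subunit made by liver, at 0.29, and Plekha8, a glycolipid transfer gene on chromosome 6, at 0.32. Next came the peroxisomal gene Pex11a at 0.38, the cell cycle repressor gene E2f8 at 0.39, Bhlhb9 at 0.40 and the carnitine transporter gene Slc22a5 at 0.42. In these 8 genes, chosen for their likeness to Pdk4, the strains did not overlap, as in 17.8% of all genes. Their differences ran from -1.04 to -0.76. Of the 8, Plekha8 alone passed (limma adjusted p = 0.0438), but not in any fit that left out 1 array (0.0689 to 0.268). The profiles chose the 8 genes, so their differences as a set carry no test.

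**Figure D3:**
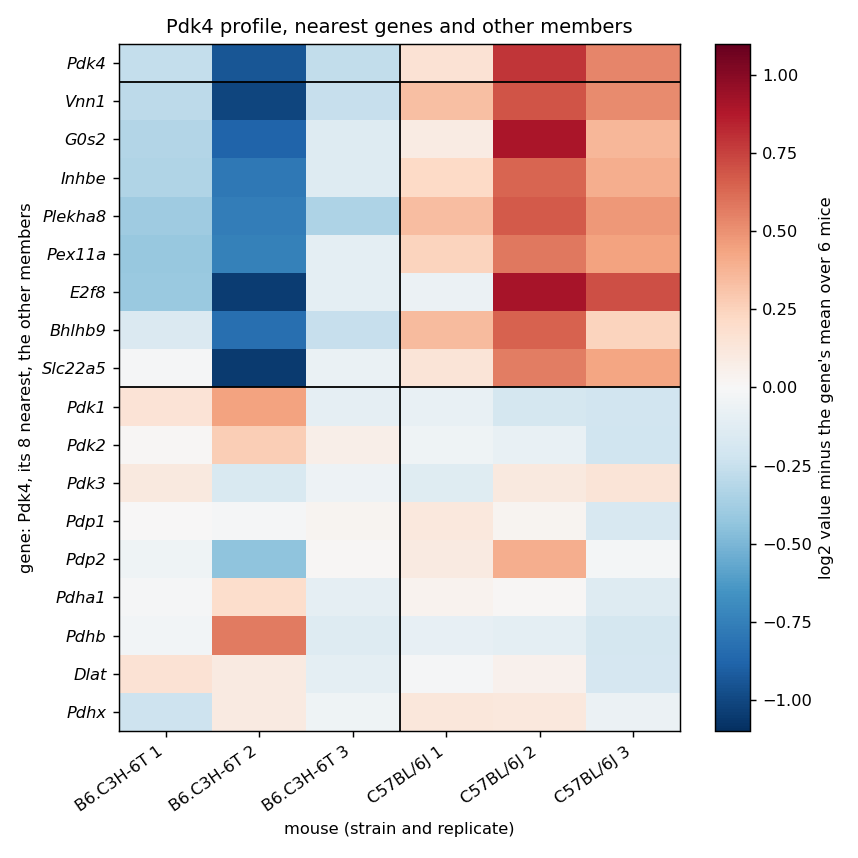
Log2 value minus the gene's own mean over the 6 mice, for Pdk4 (top), its 8 nearest genes (middle) and the other 9 members (bottom), with the 3 B6.C3H-6T mice left of the 3 C57BL/6J mice. Blue is below and red above the gene's mean. In the top and middle blocks B6.C3H-6T replicate 2 is the lowest column and C57BL/6J replicate 2 the highest, whereas among the other members only Pdp2 shows both.

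Pdk4 lies near one end of chromosome 6, as gene 21 in order of the 992 measured there. Of the 6 measured genes on each side of it, 7 were higher and 5 lower in B6.C3H-6T, with a median difference of 0.04 and a range from -0.33 to 0.10, and 0 passed in limma. One of the 12, Ppp1r9a, had an unadjusted limma p under 0.05 (8.33%, against 12.1% of all genes and 14.8% of the genes of chromosome 6, where 0.605% passed). Ppp1r9a, a gene for an actin-binding protein of neurons and named here after its value was seen, read 7.70, 7.44 and 7.74 in B6.C3H-6T against 7.86, 7.94 and 8.05 in C57BL/6J. The closest measured neighbours were Asb4 and Dync1i1, with differences of 0.07 ± 0.07 and 0.04 ± 0.06, and both are dim (percentiles 14.9 and 6.04). The C3H bases under the probes of the single Pdk4 probe set are not known here.

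Genes that complete the complex showed small differences. Dld, the E3 subunit shared with other dehydrogenases, differed by 0.08 ± 0.07, and Pdpr, the regulatory subunit of the phosphatase, by -0.07 ± 0.07. The 5 genes that make and attach the lipoyl group of E2, Lias, Lipt1, Lipt2, Mcat and Oxsm, ran from -0.11 to 0.04. Of 7 genes of the sister dehydrogenases for 2-oxoglutarate and branched-chain oxoacids, 4 were higher and 3 lower. Among these Dbt, the E2 of the branched-chain complex, read 9.39, 9.73 and 9.47 in B6.C3H-6T against 9.33, 9.23 and 9.19 in C57BL/6J, with no overlap and a difference of 0.28 ± 0.09 (limma adjusted p = 0.390), or 0.17 without B6.C3H-6T replicate 2. Bckdk, the kinase of that complex and a relative of the Pdk family, differed by -0.12 ± 0.07, and its phosphatase gene Ppm1k on chromosome 6 by -0.10 ± 0.13, a sign that turned without B6.C3H-6T replicate 2. Across these 14 genes, each by its probe set of highest mean, 0 passed in limma (0.066% of all genes did). At an unadjusted p under 0.05 there was 1, Dbt, against 12.1% of all genes. Dlst and Ppm1k each had 1 other probe set at that p, with the sign of the one used.

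Genes of pyruvate supply and use differed in both directions. Of 14 measured, 9 were higher and 5 lower, where 56.1% of all genes were higher, and 0 passed. An unadjusted limma p under 0.05 was found for 7, 5 higher and 2 lower, against 12.1% of all genes (6.34% higher and 5.8% lower). The strains did not overlap at 8 of the 14, against 17.8% of all genes. The pyruvate transporter gene Mpc1 differed by -0.00 ± 0.06 and the pyruvate carboxylase gene Pcx by -0.14 ± 0.08. Slc16a1, which carries lactate and pyruvate across the cell membrane, read 10.18, 10.07 and 9.998 in B6.C3H-6T against 10.39, 10.56 and 10.67 in C57BL/6J, a difference of -0.46 ± 0.09 with no overlap (limma adjusted p = 0.207). The lactate dehydrogenase gene Ldha differed by -0.26 ± 0.07. On the positive side were the alanine aminotransferase genes Gpt2 (0.46 ± 0.12) and Gpt (0.36 ± 0.10). For Gpt the difference was 0.14 once probe sets ending in _x_at, _s_at or _a_at were left out. The liver pyruvate kinase gene Pklr (0.67 ± 0.23) and Acly, which returns citrate to acetyl-CoA for fat synthesis (0.86 ± 0.26), were also positive. Pklr read 10.31, 11.34 and 10.43 in B6.C3H-6T against 10.07, 10.08 and 9.93 in C57BL/6J, and B6.C3H-6T replicate 2 stood above the other 5 mice. Without that mouse the differences were 0.34 for Pklr and 0.50 for Acly, and the list still had 7 genes at an unadjusted p under 0.05, 5 higher and 2 lower.

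Regulators known to act on Pdk4 did not share one direction. The list mixes inducers of Pdk4 with the insulin signalling genes Insr, Irs1 and Irs2, and insulin is known to lower Pdk4. For Rxra and Hnf4a, no other probe set had the sign of the one used. Of the 16 genes in the list, 10 were higher and 6 lower, where 56.1% of all genes were higher. None passed in limma (0.066% of all genes did), and 6 had an unadjusted p under 0.05, 5 higher and 1 lower, against 6.34% higher and 5.8% lower of all genes. The lower one was Ppara, the nuclear receptor gene that induces Pdk4 on fasting, at 11.19, 10.50 and 10.96 in B6.C3H-6T against 11.29, 11.42 and 11.25 in C57BL/6J. Every congenic mouse lay below every C57BL/6J mouse, replicate 2 lowest, and the difference was -0.43 ± 0.15 (limma adjusted p = 0.391), or -0.24 without that mouse. Klf15, a glucocorticoid-induced transcription factor gene on chromosome 6, was at 10.70, 11.00 and 10.81 in B6.C3H-6T against 10.31, 10.38 and 10.29 in C57BL/6J, a difference of 0.51 ± 0.08 (limma adjusted p = 0.136). The forkhead genes Foxo3 and Foxo1, which insulin signalling holds back, differed by 0.36 ± 0.09 and 0.21 ± 0.09, the coactivator gene Ppargc1a by 0.23 ± 0.09 and Cebpb by 0.28 ± 0.11. Without B6.C3H-6T replicate 2 the differences of Foxo1 and Cebpb were 0.13 and 0.16, and without C57BL/6J replicate 2 that of Ppargc1a was 0.13. Foxo1 differed by 0.064 once probe sets ending in _x_at, _s_at or _a_at were left out. The count of 6 was 3 without B6.C3H-6T replicate 2, without B6.C3H-6T replicate 3 or without C57BL/6J replicate 2.

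All 24 measured PPAR alpha targets and genes of fasting had lower values in B6.C3H-6T, where 43.9% of all genes were lower. Their median difference was -0.30, against 0.02 over all genes, and 13 had an unadjusted limma p under 0.05, all lower, against 5.8% of all genes lower at that p. None passed in limma, as against 0.066% of all genes. Besides Vnn1 and Pex11a, those with the smallest p were Acot1, a fatty acyl-CoA hydrolase (-1.34 ± 0.27), the carnitine carrier gene Slc25a20 (-0.38 ± 0.11), the dienoyl-CoA reductase gene Decr1 (-0.34 ± 0.10) and Fgf21, a hormone of fasting (-0.34 ± 0.11). The Fgf21 probe set lay near the middle of all probe sets in signal (percentile 52.2). Acot1 read 8.74, 8.34 and 9.42 in B6.C3H-6T against 9.70, 10.33 and 10.47 in C57BL/6J, with no overlap. B6.C3H-6T replicate 2 was the lowest of the 6 mice at 21 of the 24 genes and C57BL/6J replicate 2 the highest at 17, against 18.1% and 19.1% of all genes. Without B6.C3H-6T replicate 2, the 24 genes were still lower, with a median of -0.20 and 10 at an unadjusted p under 0.05, and without B6.C3H-6T replicate 1 that number was 20. This list, like the others, was chosen with earlier results of these data known, and the genes of one liver vary together. The counts of this list are therefore a description of the mice and not a test.

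**Figure D4:**
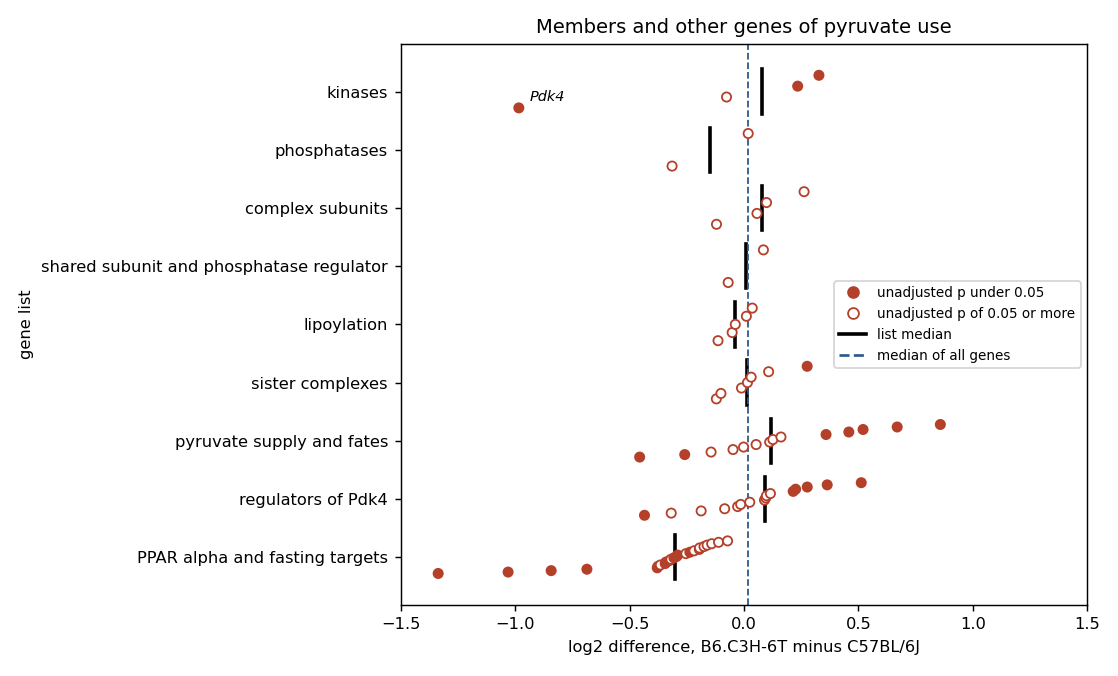
Log2 difference, B6.C3H-6T minus C57BL/6J, for each member and each gene of the surrounding lists, 1 point per gene, filled where the unadjusted p was under 0.05, with list medians as black bars and the median of all genes as a dashed line. Pdk4 lies at -0.98 apart from the other kinases, and the 24 PPAR alpha targets lie below 0 with a median of -0.30.

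Markers of other cell types moved with the strain in some lists. Of 5 Kupffer cell and macrophage markers, 5 were lower at an unadjusted limma p under 0.05, against 5.8% of all genes, and 0 passed. Their summed linear signal was 3125 to 3889 in B6.C3H-6T and 4054 to 4960 in C57BL/6J. The 3 lymphocyte markers summed to 451 to 526 in B6.C3H-6T and 560 to 566 in C57BL/6J, but their differences were -0.47 for Ptprc, which marks all leukocytes, -0.09 for Cd79a and 0.09 for Cd3e. Hepatocyte markers were higher in 6 of 6, where 56.1% of all genes were higher. Of these 6, 2 had an unadjusted limma p under 0.05, against 6.34% of all genes higher at that p, and 0 passed. The 2 were Tat (0.42) and Cps1 (0.26), while Alb, Apoa1, Ttr and Serpina1b differed by 0.02, 0.02, 0.08 and 0.09. The hepatocyte sums were 104752 to 108299 in B6.C3H-6T and 96427 to 102581 in C57BL/6J. Muscle, where Pdk4 is abundant, had 7 markers, of which 2 lay above the array median on every array, with sums of 375 to 384 in B6.C3H-6T and 355 to 367 in C57BL/6J. Of the 7, 3 were higher and 4 lower, with a median difference of -0.01. Endothelial, stellate, cholangiocyte, pancreas, kidney, adipocyte and red blood cell markers overlapped between the strains in their sums, with 4 of 5 pancreas, 3 of 5 adipocyte and 1 of 3 red blood cell markers measured. The part of Kupffer cells, macrophages, lymphocytes and muscle in the values above was not tested.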

How the data were processed

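Liver RNA of 6 mice was measured on Affymetrix arrays, 1 mouse per array, 3 per strain. The deposited values are log2 expression values made by the authors; the submitters' processing notes name RMA and affy. The sources used here do not give their versions or a genome build. RMA normalizes between arrays, so a value is relative to the array, and oligo(dT) priming, per the labels' protocols, favours the 3' part of transcripts. Values between 3.14 and 14.6 fit that scale. The number of arrays limits the precision.

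The table held 45101 probe sets. After 64 control probe sets were left out, 34945 of 45037 were paired with 1 gene, 932 with several and 9160 with none, through the platform annotation, with symbols updated by gene identifier to the RefSeq gene table of GRCm38.p6. A gene is represented by its probe set of highest mean over the 6 arrays. Mpc2 and Cyp4a10 were not analysed here. The strain difference was fitted by limma 3.58.1 under R 4.3.3 (lmFit, eBayes, no covariate), two-sided, with Benjamini-Hochberg adjustment over all probe sets at 0.05. The fit was tested on simulated data. Exact permutation tests used scipy 1.17.1.

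Members and gene lists were chosen with earlier results of these data known. The genes named are all members, up to 6 genes of smallest p per list, Dld, Pdpr, Mpc1, Pcx, Ppara, Ppargc1a and Foxo1 whatever their values, and the 8 genes nearest to Pdk4. Replicate numbers follow accession order and only name a mouse. Alternatives were leaving out each array, median centring, quantile normalization, brighter probe sets only, a trended robust prior, array weights, no moderation of variances, no probe sets ending in _x_at, _s_at or _a_at, and adjustment over genes.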

Additional observations from a re-analysis of the deposited data

How the results depend on the processing

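Pdk4 kept its sign and missed the threshold in each of 14 alternatives, with differences from -1.15 to -0.76 without 1 array and adjusted p from 0.169 to 0.547 in the other settings. The shift of Pdk4 against each other member was negative in every setting run, also with the mean of all probe sets of a gene. No member probe set and no gene of the lists passed in limma under any alternative. The ordinary linear model left 1 member at an unadjusted p under 0.05 (Pdk4), 6 of the PPAR alpha list and 13 of all list genes, in place of 6, 13 and 27, and leaving out B6.C3H-6T replicate 1 gave 20 of the PPAR alpha list. Over all probe sets the 26 calls became 0 in the ordinary linear model (2346 higher and 1495 lower at an unadjusted p under 0.05), 13 with 1 probe set per gene and 11 to 17 without 1 array, which leaves fewer mice.

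Signs that turned belonged to small differences. Leaving out 1 array gave -0.034 to 0.093 for Dlat 1426264_at, -0.027 to 0.12 and -0.11 to 0.053 for Pdha1 1418560_at and 1449137_at, -0.12 to 0.28 for Pdk1 1434974_at, and -0.064 to 0.081 and -0.019 to 0.024 for Pdp1 1434228_at and 1438201_at. It gave -0.043 to 0.053 for Dlst, -0.088 to 0.030 for Lias, -0.14 to 0.033 for Lipt2, -0.015 to 0.080 for Mcat, -0.021 to 0.029 for Mpc1, -0.026 to 0.055 for Oxsm and -0.23 to 0.062 for Ppm1k. Centring gave -0.011 for Dlst, -0.015 for Oxsm, and -0.0075 and -0.018 for the Pdp1 probe sets. Quantile normalization gave -0.0066 for Dlst and -0.012 and -0.0051 for the Pdp1 probe sets, and array weights gave 0.0063 for Mpc1. The cause was not tested. No paired analysis was possible because the labels do not pair mice across the strains. With 3 mice per strain, probe sets with little signal, such as those of Pdk3 and Pdp1, allow only the intervals given.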
